A study of Mus musculus with 12 samples.

Results

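The 46 genes described here encode enzymes of the lysosome, proteins of its membrane, subunits of its proton pump, the transcription factors that regulate these genes, and proteins of autophagy. They were taken by gene name from all non-control probes of the array. All 46 were on the array, with 65 probes, out of 34796 gene names with 55675 probes. A probe entered the test if 1 or more groups had it well above background in all 3 mice, which left 45 of the 46 members (61 probes) among 20025 gene names in all. Each gene is represented by its tested probe with the highest mean.

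RNA came from the aorta of adult male C57BL/6J mice on day 3, with 1 array per mouse and 3 mice in each of 4 groups. DMSO mice received the vehicle alone, and rapamycin mice received rapamycin, an inhibitor of the kinase mTOR, at 2 mg/kg/day in the same vehicle. BA+DMSO mice received vehicle together with 150 mg/kg/day of beta-aminopropionitrile (BAPN, which blocks collagen crosslinking) and 1 µg/kg/min of angiotensin II (AngII), a combination that later causes aortic dissection, and BA+rapamycin mice received that combination with rapamycin. No group carried a transgene, and BAPN and AngII were not given separately. The sample titles call the DMSO group "Pre", although the series gives day 3 for all groups.

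Lysosomes break down proteins, glycans and lipids with acid hydrolases, which work in the low pH kept by a proton pump (the vacuolar ATPase). Autophagy encloses cytoplasm in a membrane, marked by lipid-bound proteins of the LC3 and GABARAP families, and delivers it to the lysosome. Both are tied to mTOR: active mTORC1 holds the factors TFEB and TFE3 in the cytoplasm and restrains the ULK1 kinase that starts autophagy, and TFEB and its relatives bind E-box sequences (CACGTG) near many lysosomal genes. In an inflamed vessel, macrophages carry large amounts of lysosomal proteases such as cathepsin S.

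Levels are log2 processed signal minus the 75th percentile of the array, so 0 is that percentile and 1 unit is a doubling. Most challenged arrays were dimmer than the others: the 75th percentile was 221.5 to 279.8 intensity units in DMSO, 257.4 to 337.3 in rapamycin, 132, 78.07 and 246.4 in BA+DMSO replicates 1 to 3, and 74.62 to 109.3 in BA+rapamycin. On rapamycin every challenged array was dimmer than every unchallenged one, so brightness and the challenge cannot be told apart there. Fits with brightness as a covariate, given below, cannot decide between them on that background. All DMSO arrays and rapamycin replicate 1 lay on slide 1, and all challenged arrays and rapamycin replicates 2 and 3 on slide 2, so that on vehicle the slide and the challenge cannot be told apart. Arrays of BA+DMSO were less alike than those of the other groups, with correlations across probes of 0.912 to 0.961 against 0.974 to 0.993, and replicate 2 was the dimmest of the 3. All 9 markers of smooth muscle, the main cell of the aortic media, were well above background on every array, and their mean log2 level was 6.37 to 6.50 on unchallenged and 4.93 to 6.23 on challenged arrays. Of these, 2 of 9 fell on vehicle (median difference -0.61), and on rapamycin 4 fell and 1 rose. The 16 macrophage markers, also detected on every array, had a mean log2 level of 0.81 to 1.80 in DMSO, 1.47 to 1.84 in rapamycin, 3.66, 2.52 and 3.22 in BA+DMSO replicates 1 to 3, and 2.92 to 3.08 in BA+rapamycin. Their summed linear level was 128 to 157, 153 to 177, 281 to 536 and 448 to 565 in these groups, of which Itgam alone made up 32.9% to 79.7% on an array. On vehicle, where 10.4% of all genes rose and 11% fell, 14 of the 16 macrophage markers rose. So did 3 of 3 tested erythroid, 3 of 4 mesothelial, 2 of 3 brown adipocyte, 2 of 5 lymphocyte, 2 of 6 neutrophil and 2 of 6 endothelial markers. The brown adipocyte marker Ucp1 was not well above background on any DMSO array, so a called rise of Ucp1 is no support. Of 6 fibroblast and 4 osteoclast markers 1 each rose, of 5 adipocyte markers none was called, and of 4 striated muscle markers 1 fell. On rapamycin, where 19.8% of all genes rose and 22.9% fell, 11 macrophage markers rose and 1 fell. There 2 erythroid, 2 lymphocyte, 2 neutrophil and 2 fibroblast markers rose. Of brown adipocyte markers 1 rose and 1 fell, and of endothelial markers 1 rose and 2 fell. No mesothelial, osteoclast, adipocyte or striated muscle marker was called on rapamycin. In such bulk tissue, fewer cells of a type and less RNA per cell cannot be told apart, and neither can more cells and more RNA per cell.

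With the challenge, more autophagy genes fell than rose, with 3 of 12 lower and 1 higher on vehicle. Of 21 tested enzymes and cofactors, 3 rose and none fell on vehicle, where 10.4% of all genes rose and 11% fell, and 4 rose and 1 fell on rapamycin, where 19.8% of all genes rose and 22.9% fell. Over all members on vehicle, 4 members rose (Ctss, Ctsz, Lipa and Gabarap) and 4 fell (Mitf, Map1lc3b, Ulk1 and Gabarapl1) at a limma adjusted p under 0.05, or 17.8% of the 45 tested, and this share was close to the 21.4% of all 20025 genes called in that comparison. None of these 8 calls was kept with slide as a fixed block (0.0599% of all genes called) or in a fit of the 2 groups alone (4.78%). Over 25 alternatives, these 2 fits included, none of the 8 differences changed sign. The rises ran from 1.80 to 3.17 (Ctss), 0.74 to 0.92 (Ctsz), 0.71 to 0.89 (Lipa) and 0.22 to 0.50 (Gabarap). The falls ran from -1.34 to -0.66 (Mitf), -1.15 to -0.33 (Map1lc3b), -0.72 to -0.49 (Ulk1) and -0.85 to -0.39 (Gabarapl1). By direction, 8.89% of members rose and 8.89% fell, against 10.4% higher and 11% lower among all genes, and with array brightness as a covariate 11 members were higher and 2 lower (19.5% of all genes called). The median difference of the members was -0.05 log2, and that of all genes -0.02. On rapamycin, the same challenge called 21 members, 6 higher and 15 lower (46.7%), against 42.7% of all genes, and the split leaned to falls, with 13.3% higher and 33.3% lower in the members against 19.8% higher and 22.9% lower in all genes. With array brightness as a covariate this split turned to 5 members higher and 0 lower (6.91% of all genes were called). The median there was -0.32 in the members and -0.07 in all genes.

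The group means of these 2 comparisons share no array. The spread of each gene was estimated from the arrays of all groups, so the calls on vehicle and on rapamycin are not independent. All 8 members called on vehicle were also called in the same direction on rapamycin, which is 100% of the first list and 38.1% of the second, and over all genes these shares were 81.5% and 40.9%. The arrays of the groups did not overlap for 14 members on vehicle (31.1%, with 35.6% of all genes) and for 32 members on rapamycin (71.1%, with 67.8% of all genes).

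**Figure D1:**
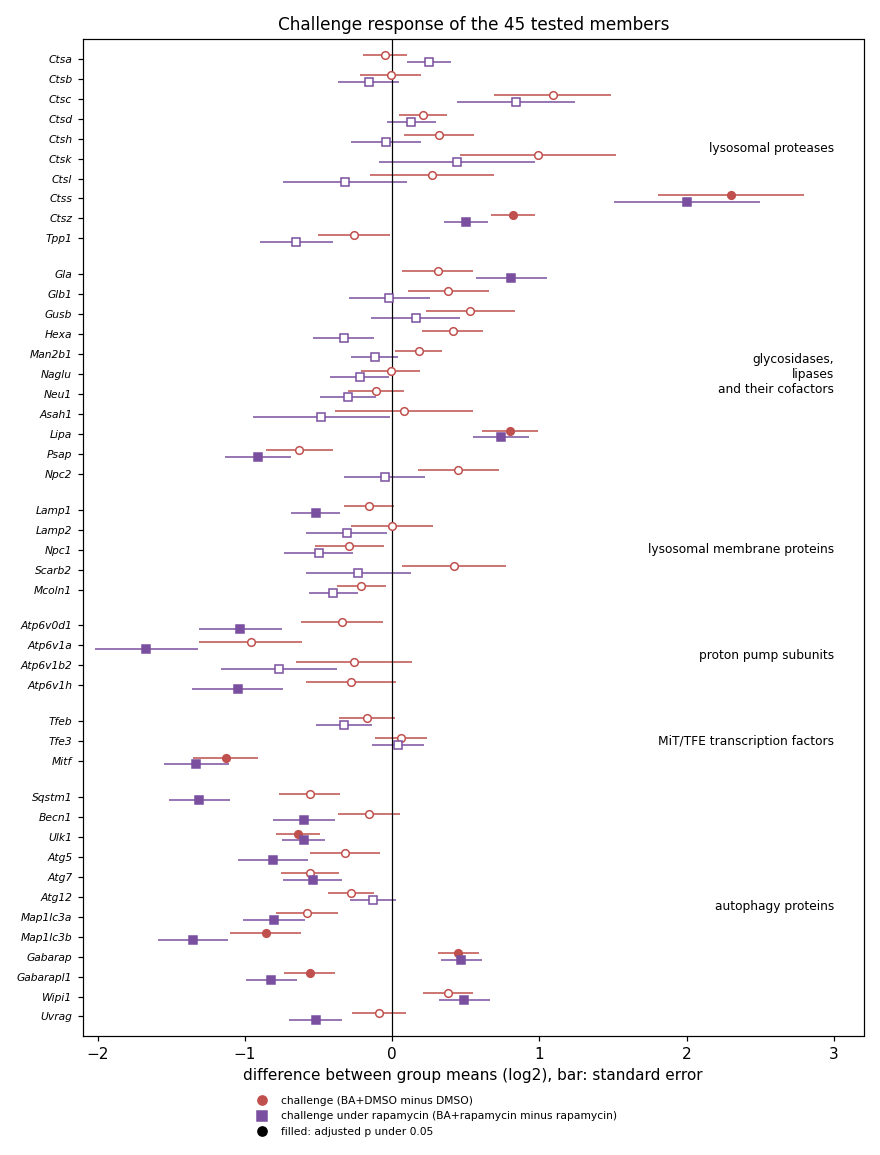
Difference between group means in log2 units for each of the 45 tested members, with the standard error as a bar, for the challenge on vehicle (circles) and on rapamycin (squares), and filled symbols for an adjusted p under 0.05. Ctss lies farthest to the right in both (2.30 and 2.00), and Atp6v1a farthest to the left on rapamycin (-1.67).

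Among the 10 lysosomal proteases, Ctss and Ctsz rose in both challenge comparisons (20%, with 10.4% of all genes higher on vehicle and 19.8% on rapamycin) and none fell, and the list's median was 0.29 on vehicle and 0.19 on rapamycin. Ctss encodes cathepsin S, a protease that also acts outside the cell on elastin and is abundant in antigen-presenting cells (probe at mm9 chr3:95360245-95360304). Its level was 1.98, 1.05 and 0.85 in DMSO, 1.65, 1.71 and 2.35 in rapamycin, 4.60, 2.35 and 3.84 in BA+DMSO, and 4.18, 3.89 and 3.63 in BA+rapamycin. Every challenged array was above every DMSO array, while BA+DMSO replicate 2 stood level with the highest rapamycin array. The difference was 2.30 (SE 0.496, 4.93-fold, limma adjusted p 0.0101) on vehicle and 2.00 (SE 0.496, 3.99-fold, adjusted p 0.0103) on rapamycin. Macrophage markers were higher on the same arrays, and their part in this rise was not tested.

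Ctsz, which encodes the carboxypeptidase cathepsin Z, changed less but more evenly (mm9 chr2:174253228-174253287). It read 4.83, 4.82 and 4.91 in DMSO and 5.67, 5.60 and 5.74 in BA+DMSO, with 4.90, 5.07 and 4.88 in rapamycin and 5.58, 5.25 and 5.52 in BA+rapamycin. BA+DMSO replicate 2 did not stand apart here, and no challenged array reached down to an unchallenged one. The rise was 1.76-fold on vehicle (log2 0.82, adjusted p 0.00474) and 1.42-fold on rapamycin (0.50, adjusted p 0.0225).

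Other proteases were high on some BA+DMSO arrays and not on others. Ctsc, which encodes cathepsin C, the activator of leukocyte serine proteases, read 3.17, 1.28 and 2.85 in BA+DMSO against 1.59, 1.35 and 1.10 in DMSO. Ctsk, the collagen-cleaving cathepsin K of osteoclasts, read 4.82, 2.56 and 4.51 against 3.79, 2.68 and 2.45, and Ctsl read 6.47, 4.96 and 6.78 against 6.32, 5.59 and 5.50. In each of these BA+DMSO replicate 2 lay within or below the range of the DMSO arrays and the other 2 lay above it. With all arrays, no change was called for Ctsc (1.09, adjusted p 0.0768), Ctsk (0.99, 0.209) or Ctsl (0.27, 0.686).

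Without BA+DMSO replicate 2, Ctsc was 1.66 higher, Ctsk 1.69 higher and Ctsl 0.82 higher. That array read low for all 3, so leaving it out raises their BA+DMSO mean by construction. These values are no support for a rise. On rapamycin Ctsk read 2.88, 3.10 and 3.59 without and 3.62, 3.85 and 3.41 with the challenge, and Ctsl 5.99, 5.85 and 6.50 without and 5.74, 6.09 and 5.55 with it. Of Ctsk, Ctsl and Ctss, with all arrays, Ctss was the one called on either background. Of the remaining proteases, Ctsa, Ctsb, Ctsd, Ctsh and Tpp1 differed on vehicle by between -0.26 (Tpp1) and 0.32 (Ctsh), with no call. Of 4 tested osteoclast markers, Acp5 rose on vehicle. The summed level of the 5 on the array was 57.8 to 61.2 in DMSO and 36.3 to 66.4 in BA+DMSO. Itgb3 alone made up 62.8% to 89.1% of it on an array, and Calcr was not well above background on any array.

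The 11 glycosidases, lipases and cofactors had a median of 0.31 on vehicle, and 1 of them was called, Lipa, which rose (9.09%, with 10.4% of all genes). It encodes lysosomal acid lipase, which frees cholesterol and fatty acids from ingested lipoproteins (mm9 chr19:34567717-34567776). Lipa read 1.15, 1.14 and 1.25 in DMSO, 0.95, 1.26 and 0.82 in rapamycin, 1.91, 2.18 and 1.86 in BA+DMSO, and 1.98, 1.42 and 1.85 in BA+rapamycin. Its 6 challenged arrays lay above its 6 unchallenged arrays, with differences of 0.80 (SE 0.192, adjusted p 0.0158) on vehicle and 0.74 (SE 0.192, adjusted p 0.0125) on rapamycin. On rapamycin the median of the list was -0.12, which became 0.40 with array brightness as a covariate.

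Besides Lipa, Gla and Psap were called on rapamycin, in opposite directions. There 18.2% of the list rose and 9.09% fell, against 19.8% and 22.9% of all genes. Gla encodes alpha-galactosidase A, and read 8.04, 8.06 and 7.87 in rapamycin and 8.66, 8.99 and 8.74 in BA+rapamycin, a rise of 0.81 (adjusted p 0.0225). In DMSO it read 7.94, 7.97 and 8.02 and in BA+DMSO 8.32, 8.82 and 7.72, so that these groups overlapped. Psap encodes prosaposin, the precursor of activators that present sphingolipids to hydrolases (mm9 chr10:59764825-59764884). It read 5.56, 5.67 and 5.65 in DMSO, 5.09, 5.44 and 5.48 in rapamycin, 5.02, 4.50 and 5.46 in BA+DMSO and 4.46, 4.43 and 4.38 in BA+rapamycin. All BA+rapamycin arrays lay below all other arrays, with BA+DMSO replicate 2 next to them. The fall was 0.91 log2 on rapamycin (log2 difference -0.91, SE 0.225, adjusted p 0.00994), and the difference of -0.63 on vehicle had an adjusted p of 0.07. For Gla the direction on rapamycin turned to -0.18 with array brightness as a covariate, and that of Psap shrank to -0.14, with the call lost.

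Gusb, Npc2, Glb1 and Hexa also read lower on BA+DMSO replicate 2 than on replicates 1 and 3. Gusb (beta-glucuronidase) read 2.77, 2.71 and 2.68 in DMSO and 3.55, 2.40 and 3.82 in BA+DMSO, and Npc2, a carrier of cholesterol in the lysosome lumen, read 3.85, 3.58 and 3.50 in DMSO and 4.29, 3.37 and 4.61 in BA+DMSO. For both, replicate 2 was the lowest of the 6 arrays and the other 2 BA+DMSO arrays were the highest. Glb1 and Hexa, which encode beta-galactosidase and a beta-hexosaminidase chain, showed 2.56, 1.65 and 2.91 and 4.53, 4.03 and 4.79 in BA+DMSO. None was called with all arrays. Without replicate 2 the differences were 0.74 (Glb1), 0.96 (Gusb), 0.62 (Hexa) and 0.81 (Npc2). These genes are shown because replicate 2 read low for them, so these values are no support for a rise. The other 4 members of the list, Man2b1, Naglu, Neu1 and Asah1, differed by -0.11 to 0.18 on vehicle with all arrays.

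**Figure D2:**
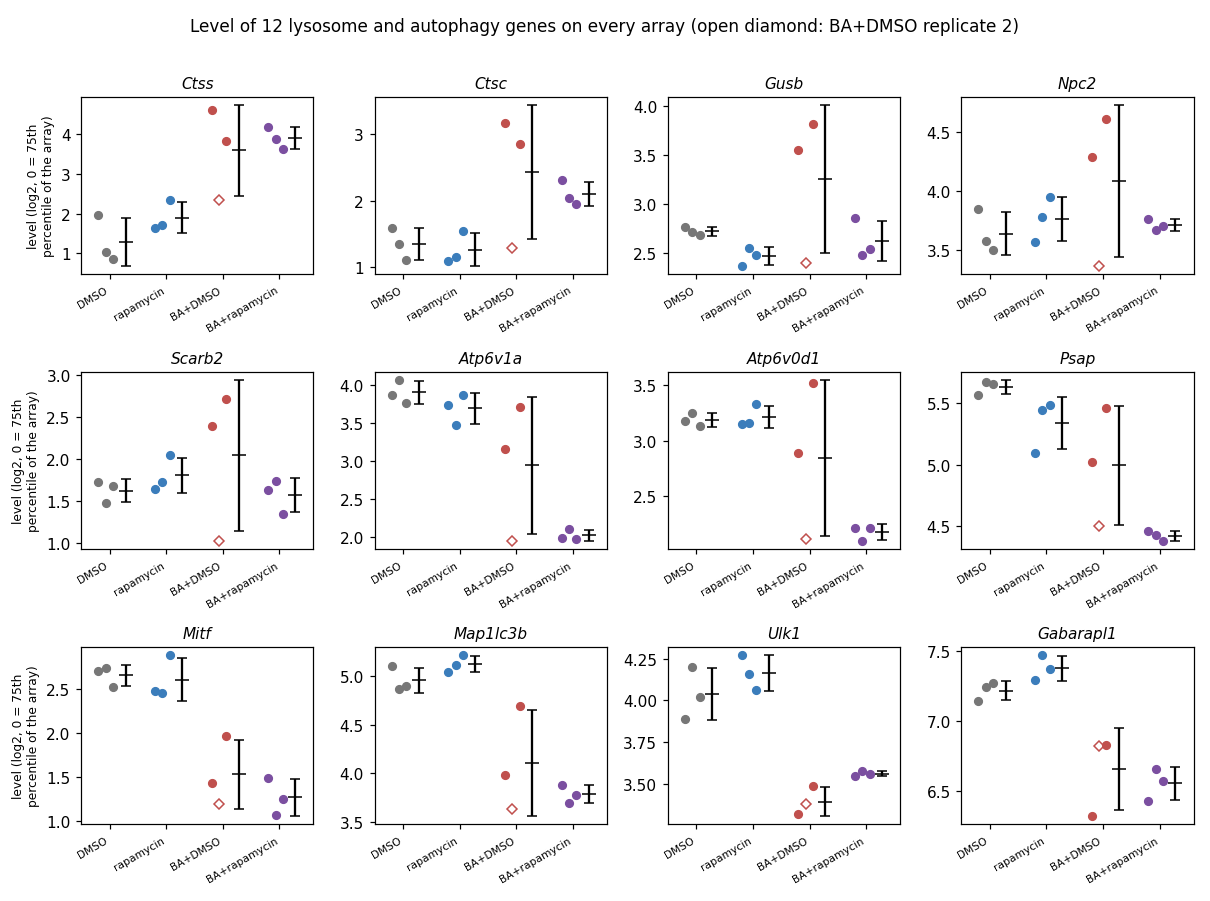
Level of 12 members on each of the 12 arrays by group (points), with the group mean and SD beside them, and BA+DMSO replicate 2 as an open diamond. For Ctsc, Gusb, Npc2, Scarb2 and Atp6v1a the diamond lies at least 1 log2 unit below one or both of the other BA+DMSO arrays, and for Ulk1 and Gabarapl1 it lies among them.

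The 5 genes of the lysosomal membrane had no call on vehicle (median -0.16, which became 0.16 with array brightness as a covariate) and 1 fall on rapamycin, or 20%, with 22.9% of all genes (median -0.40, which became 0.30 in the same way). Lamp1, the most used marker of the lysosome membrane, read 7.46, 7.50 and 7.42 in DMSO, 7.40, 7.46 and 7.46 in rapamycin, 7.29, 6.99 and 7.60 in BA+DMSO and 6.98, 6.88 and 6.91 in BA+rapamycin (mm9 chr8:13175277-13175336). All 3 BA+rapamycin arrays were below all other arrays, and the fall on rapamycin was 0.52 log2 (log2 difference -0.52, SE 0.169, adjusted p 0.0311). This call was lost in 11 of 26 alternatives, and over the 26 the difference ran from -0.96 to -0.01. Scarb2, the receptor that carries beta-glucocerebrosidase to the lysosome, read 2.39, 1.02 and 2.71 in BA+DMSO against 1.72, 1.47 and 1.67 in DMSO. The difference was 0.93 without BA+DMSO replicate 2, which read low for Scarb2, so this value is no support for a rise. Lamp2, Mcoln1, a calcium channel, and Npc1, the cholesterol exporter, differed on vehicle by 0.00, -0.21 and -0.29.

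Of the 5 proton pump subunits, 4 were tested. On rapamycin 3 of the 4 fell (22.9% of all genes did) and the median was -1.04, while on vehicle none was called (11% of all genes fell) and the median was -0.31, and with array brightness as a covariate these medians were 0.13 and 0.36. Atp6v1a, the catalytic subunit that binds ATP, read 3.87, 4.06 and 3.76 in DMSO, 3.73, 3.47 and 3.87 in rapamycin, 3.16, 1.95 and 3.71 in BA+DMSO, and 1.99, 2.11 and 1.98 in BA+rapamycin (mm9 chr16:44085826-44085885). All BA+rapamycin arrays and BA+DMSO replicate 2 lay below the rest. The fall on rapamycin was 3.17-fold (log2 difference -1.67, SE 0.35, adjusted p 0.00501), and a second probe of the gene gave 3.63-fold. On vehicle the difference was -0.96 (adjusted p 0.0761), and the second probe was called (-1.05, adjusted p 0.0386).

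Atp6v0d1 and Atp6v0d2 encode alternative forms of the same membrane subunit, the first in most tissues and the second in osteoclasts and kidney. Atp6v0d1 read 3.18, 3.25 and 3.13 in DMSO, 3.15, 3.16 and 3.33 in rapamycin, 2.89, 2.12 and 3.52 in BA+DMSO, and 2.22, 2.10 and 2.22 in BA+rapamycin (mm9 chr8:108048778-108048837). As with Atp6v1a, the BA+rapamycin arrays and BA+DMSO replicate 2 were the low ones. The fall on rapamycin was 1.03 log2 (log2 difference -1.03, SE 0.279, adjusted p 0.0151). Neither of the 2 Atp6v0d2 probes passed the background filter in any group, so it was not tested. Atp6v1h, a regulatory subunit, read 0.40, 0.11 and 0.03 in DMSO, -0.04, 0.09 and 0.54 in rapamycin, -0.08, -0.82 and 0.60 in BA+DMSO and -0.90, -0.74 and -0.93 in BA+rapamycin. On rapamycin this was a fall of 1.05 log2 (log2 difference -1.05, adjusted p 0.0201), and Atp6v1b2 differed by -0.77 (adjusted p 0.131).

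Pump levels moved with array brightness. The 4 dimmest arrays, BA+DMSO replicate 2 and the BA+rapamycin arrays with 75th percentiles of 74.62 to 109.3, had Atp6v1a at 1.95 to 2.11. BA+DMSO replicate 1 (brightness 132) had 3.16 and BA+DMSO replicate 3 (246.4) had 3.71, a value within the range of the unchallenged arrays. When brightness entered the model as a covariate, Atp6v1a differed on rapamycin by -0.30, Atp6v0d1 by 0.12 and Atp6v1h by 0.13, with no call. Ctss was 4.60 and 3.84 on the brighter BA+DMSO arrays and 2.35 on the dim BA+DMSO replicate 2, the lowest challenged array, but 3.63 to 4.18 on the dim BA+rapamycin arrays. On rapamycin the brightness of challenged and unchallenged arrays did not overlap, so the fit with brightness cannot tell it from the challenge. Whether brightness or the treatment set the pump levels was not tested.

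**Figure D3:**
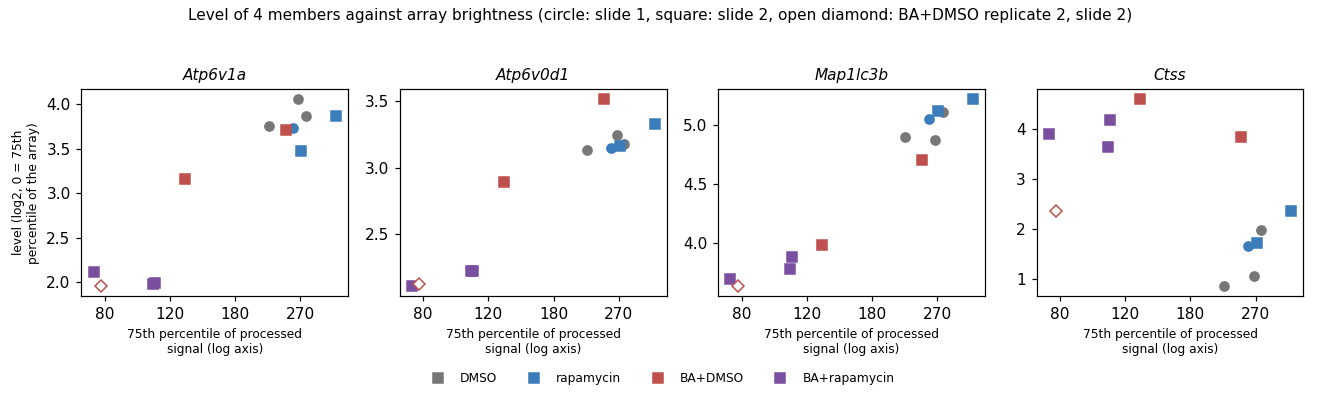
Level of 4 members on each of the 12 arrays against the brightness of the array, the 75th percentile of its processed signal on a log axis. Atp6v1a, Atp6v0d1 and Map1lc3b are low on the dim arrays and high on the bright ones, with Atp6v1a at 1.95 on BA+DMSO replicate 2 and 3.71 on replicate 3, while Ctss is at 2.35 or more on every challenged array.

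The promoters of both pump genes with a window held the E-box letters of the MiT/TFE factors. The RefSeq promoter table (build GRCm38.p6, windows of 300 bases around start sites) held 36 of the 46 members, without Ctsb, Ctsh, Asah1, Npc1, Atp6v0d2, Atp6v1b2, Atp6v1h, Becn1, Atg12 and Map1lc3a. The sequence CACGTG, which reads the same on both strands, was in a window of 12 of the 36 (33.3%) and of 2187 of the table's 27025 genes (8.09%). Its longer form TCACGTG, searched on both strands and always overlapping a CACGTG, was in 10 members (27.8%) and in 4.29% of all genes. The 12 were Ctsa, Ctsd, Ctsl, Gla, Glb1, Naglu, Lamp1, Mcoln1, Atp6v0d1, Atp6v1a, Atg5 and Atg7. Of the 15 members that fell with the challenge on rapamycin, 12 had a window and 5 of these held the motif (Atp6v1a, Atp6v0d1, Lamp1, Atg5 and Atg7), and of the 6 that rose, all with a window, 1 held it (Gla). Of the 8 members called on vehicle none held it. These counts are a description of the letters in these windows and were not tested.

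The stretch from 150 bases before to 10 bases after the start site is shown for those 5 genes, chosen because they hold the motif, to show where it lies. The other 7 genes that fell and have a window hold none, and Gla, which rose, holds 2 copies farther from its start site. Each is written 5′ to 3′ on the strand of the gene, with every CACGTG in capitals.
Atp6v1a (chr16:44139250-44139409, minus strand): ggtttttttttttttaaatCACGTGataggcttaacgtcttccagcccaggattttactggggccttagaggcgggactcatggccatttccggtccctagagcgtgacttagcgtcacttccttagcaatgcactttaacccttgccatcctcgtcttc
Atp6v0d1 (chr8:105566055-105566214, minus strand): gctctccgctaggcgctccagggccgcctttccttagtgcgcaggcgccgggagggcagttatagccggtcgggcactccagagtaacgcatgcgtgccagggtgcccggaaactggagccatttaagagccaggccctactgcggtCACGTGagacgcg
Lamp1 (chr8:13159011-13159170, plus strand): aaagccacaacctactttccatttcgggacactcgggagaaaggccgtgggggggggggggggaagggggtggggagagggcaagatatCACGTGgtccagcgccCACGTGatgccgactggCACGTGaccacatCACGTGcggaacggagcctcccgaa
Atg5 (chr10:44268189-44268348, plus strand): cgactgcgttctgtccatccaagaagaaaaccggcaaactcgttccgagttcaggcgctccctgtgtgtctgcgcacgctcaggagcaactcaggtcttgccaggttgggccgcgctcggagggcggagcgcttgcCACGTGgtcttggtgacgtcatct
Atg7 (chr6:114670946-114671105, plus strand): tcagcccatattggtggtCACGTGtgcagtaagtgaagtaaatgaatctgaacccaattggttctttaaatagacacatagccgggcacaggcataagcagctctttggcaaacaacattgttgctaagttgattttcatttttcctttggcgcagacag
Lamp1 holds 4 copies within this stretch and each of the other 4 genes shown holds 1.

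Of the 3 MiT/TFE factors, Mitf fell on both backgrounds and Tfeb and Tfe3 were not called. Mitf is the member known from pigment cells, osteoclasts and mast cells (mm9 chr6:97971229-97971288). It read 2.70, 2.74 and 2.52 in DMSO, 2.47, 2.45 and 2.88 in rapamycin, 1.43, 1.20 and 1.96 in BA+DMSO and 1.49, 1.07 and 1.25 in BA+rapamycin. No challenged array reached the unchallenged ones, and the falls were 2.18-fold on vehicle (log2 difference -1.13, SE 0.222, adjusted p 0.00659) and 2.52-fold on rapamycin (-1.33, SE 0.222, adjusted p 0.00173). A second probe was not called on either background, with -0.56 on vehicle (adjusted p 0.111) and -0.51 on rapamycin (1.42-fold, adjusted p 0.0964), so both calls rest on 1 probe.

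Tfeb, the main activator of lysosomal genes, read 0.13, 0.31 and 0.34 in DMSO, 0.29, 0.47 and 0.17 in rapamycin, -0.05, 0.29 and 0.01 in BA+DMSO and 0.16, -0.37 and 0.15 in BA+rapamycin. Tfe3 read 3.09, 3.25 and 2.98 in DMSO, 3.02, 3.22 and 3.07 in rapamycin, 3.31, 2.84 and 3.37 in BA+DMSO and 3.11, 3.29 and 3.04 in BA+rapamycin. Their groups overlapped in most comparisons, with differences on vehicle of -0.17 (SE 0.19) and 0.06 (SE 0.179), and with -0.11 and -0.02 for rapamycin in the challenged aorta. The factors are controlled largely by where they sit in the cell, which RNA levels do not show.

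Of the 12 autophagy genes, 3 fell (25%, with 11% of all genes) and 1 rose on vehicle (median -0.44), and 9 fell (75%, with 22.9% of all genes) and 2 rose on rapamycin (median -0.60). With array brightness as a covariate the medians were -0.28 and -0.22. In that fit 1 fell and 1 rose on vehicle (19.5% of all genes called) and none was called on rapamycin (6.91% of all genes called). BA+DMSO replicate 2 was the lowest BA+DMSO array for 5 of the 12, among them Atg5 (1.07, against 1.85 and 2.11) and Becn1 (0.36, against 0.73 and 1.16), and its median difference from the mean of the other 2 was 0.00 over the list, against -0.83 in the proteases and -1.28 in the pump subunits. The mean log2 level of smooth muscle markers was lower on the challenged arrays as well (4.93 to 6.23, against 6.37 to 6.50 on the unchallenged ones), while their summed linear level was 2470 to 4850 on the challenged and 2670 to 3150 on the unchallenged arrays, with Tagln and Acta2 as the largest parts. Their part in the falls of the autophagy, pump and Mitf genes was not tested.

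Map1lc3b and Map1lc3a encode the LC3 proteins that coat the autophagosome. Map1lc3b read 5.11, 4.87 and 4.90 in DMSO, 5.05, 5.12 and 5.22 in rapamycin, 3.98, 3.63 and 4.70 in BA+DMSO and 3.88, 3.69 and 3.78 in BA+rapamycin (mm9 chr8:124121771-124121830). Map1lc3a read 4.19, 4.22 and 4.14, then 4.18, 4.34 and 4.21, then 3.14, 3.72 and 3.96, and then 3.45, 3.24 and 3.65 in the same group order. Both were lower on every challenged array than on any unchallenged one. Map1lc3b fell 1.81-fold on vehicle (log2 difference -0.86, adjusted p 0.0288) and 2.54-fold on rapamycin (-1.35, adjusted p 0.0023). Map1lc3a fell on rapamycin (-0.80, adjusted p 0.0134), with -0.58 (adjusted p 0.0736) on vehicle.

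Gabarap and Gabarapl1, of the related GABARAP branch, went opposite ways at the probes that represent them. Gabarapl1 read 7.14, 7.24 and 7.27 in DMSO, 7.29, 7.47 and 7.37 in rapamycin, 6.32, 6.82 and 6.83 in BA+DMSO and 6.43, 6.66 and 6.57 in BA+rapamycin, and fell by 0.56 log2 on vehicle (log2 difference -0.56, adjusted p 0.044) and by more on rapamycin (-0.82, adjusted p 0.00523). Gabarap read 6.80, 6.68 and 6.67 in DMSO, 6.68, 6.86 and 6.85 in rapamycin, 7.12, 7.19 and 7.20 in BA+DMSO and 7.21, 7.29 and 7.32 in BA+rapamycin. Its challenged arrays were all above the others, with rises of 0.45 (adjusted p 0.0403) and 0.47 (adjusted p 0.0201). A second Gabarap probe differed by -0.02 on vehicle (limma adjusted p 0.978) and by -0.87 on rapamycin (adjusted p 0.0815), the direction of Gabarapl1. The mean of the tested Gabarap probes differed by -0.20 on rapamycin, so the rise of Gabarap rests on 1 probe.

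Among the genes that start autophagy, Ulk1, the kinase that mTORC1 restrains, read 3.89, 4.20 and 4.02 in DMSO, 4.27, 4.16 and 4.06 in rapamycin, 3.32, 3.38 and 3.49 in BA+DMSO and 3.55, 3.58 and 3.56 in BA+rapamycin. The challenged arrays lay below all others and close together. Ulk1 fell 1.56-fold on vehicle (log2 difference -0.64, SE 0.147, adjusted p 0.013) and 1.51-fold on rapamycin (-0.60, SE 0.147, adjusted p 0.00989). Becn1 and Uvrag, partners in the lipid kinase complex that acts next, fell on rapamycin (-0.60 and -0.52, adjusted p 0.041 and 0.0384) and differed by -0.16 and -0.09 on vehicle, and Becn1 turned to 0.18 on rapamycin with array brightness as a covariate.

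Sqstm1 encodes p62, the receptor that links ubiquitin-tagged cargo to LC3, and had the second largest fall of the list on rapamycin. It read 2.76, 2.65 and 2.58 in DMSO, 2.91, 2.89 and 3.01 in rapamycin, 1.62, 2.22 and 2.46 in BA+DMSO and 1.52, 1.65 and 1.73 in BA+rapamycin. The fall on rapamycin was 2.47-fold (log2 difference -1.31, SE 0.206, adjusted p 0.00138), and on vehicle the groups did not overlap but no call was made (-0.56, adjusted p 0.0759). A second probe of Sqstm1 went the other way, with a 1.72-fold higher level on rapamycin (adjusted p 0.0996). Of the genes that attach LC3 to lipid, Atg5 and Atg7 fell on rapamycin (-0.81 and -0.54, adjusted p 0.0208 and 0.0465) and Atg12 differed by -0.13, while Atg5 turned to 0.07 with array brightness as a covariate. Wipi1, a reader of the lipid made by the Becn1 complex, read 1.60, 1.70 and 1.43 in DMSO, 1.49, 1.79 and 1.77 in rapamycin, 2.10, 1.75 and 2.02 in BA+DMSO and 2.23, 2.31 and 1.98 in BA+rapamycin, and rose on rapamycin (0.49, adjusted p 0.0413). The calls on rapamycin for Wipi1, Atg7, Uvrag and Becn1 were lost in 14, 18, 17 and 13 of 26 alternatives, and those on vehicle for Gabarap and Gabarapl1 in 18 and 16 of 25.

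Leaving out 1 array changed how many members were called. On vehicle the 8 calls became 4, 3 and 5 without DMSO replicates 1, 2 and 3, 5 without BA+DMSO replicate 1, 17 without BA+DMSO replicate 2 and 15 without BA+DMSO replicate 3. The share of all genes called moved too, to 12.6%, 7.88%, 11.7%, 11.9%, 28.4% and 39.4% in the same order. On rapamycin the 21 calls became 12 and 9 without rapamycin replicates 1 and 3, and 12 and 13 without BA+rapamycin replicates 2 and 3, with 29.2%, 24.2%, 29% and 29.4% of all genes called. Within slide 2 alone, where 2 rapamycin arrays met the 3 BA+rapamycin arrays, 3 members were called (Mitf, Map1lc3b and Sqstm1, all lower), with 12% of all genes called, and the median difference was -0.35, near the -0.32 of the full fit. There the groups did not overlap for 33 of 45 members (73.3%) and for 72% of all genes.

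Rapamycin without the challenge called no member: 0 of 45 had an unadjusted p under 0.05 in limma (with 4.43% of all genes), the median difference was -0.01 and the differences ran from -0.35 (Tpp1) to 0.61 (Ctss), and 0.00499% of all genes were called. Groups did not overlap for 8 members (17.8%, with 22.4% of all genes). The 3 rapamycin arrays held Map1lc3b at 5.05 to 5.22, Ulk1 at 4.06 to 4.27 and Lamp1 at 7.40 to 7.46, and the DMSO arrays held them at 4.87 to 5.11, 3.89 to 4.20 and 7.42 to 7.50.

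With the challenge, rapamycin lowered no member past the threshold when all arrays were used, and the result rested on 1 array. With all arrays, 0 of 45 were called (0.305% of all genes were), 12 had an unadjusted p under 0.05 in limma (26.7%, with 20.5% of all genes), 7 were above 0, and the median was -0.32 against -0.03 in all genes. Groups did not overlap for 8 members (17.8%, with 14.9% of all genes). Without BA+DMSO replicate 2, 26 members were called, 25 lower and 1 higher (55.6% and 2.22%), where 41% of all genes were called, 24% lower and 17% higher. The median was then -0.55, and -0.05 in all genes. Replicate 2 was the lowest BA+DMSO array for 33 of 45 members, so leaving it out lowers most of these differences by construction. The falls called without it are therefore no support for an effect of rapamycin. This comparison shares the BA+DMSO arrays with the challenge on vehicle.

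By role, the called falls without that array (24% of all genes fell) were 4 of 4 pump subunits (median -1.11), 8 of 11 glycosidases, lipases and cofactors (-0.73), 6 of 10 proteases (-0.58), 4 of 5 membrane genes (-0.52), 3 of 12 autophagy genes (-0.10) and 0 of 3 transcription factors. Asah1 (acid ceramidase, log2 -1.47), Atp6v1a (-1.40) and Gusb (-1.06) were among the largest, and Gla was the rise (0.78). For Asah1 the arrays read 2.41, 0.57 and 2.74 in BA+DMSO and 0.88, 1.42 and 1.01 in BA+rapamycin, so replicate 2 was below all BA+rapamycin arrays and the other 2 above them. With array brightness as a covariate and all arrays, no member was called, and 1.21% of all genes were.

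Some sample titles of different groups share a date. BA+rapamycin replicate 1 and BA+DMSO replicate 1 do, and between these 2 arrays 32 of 45 members were lower with rapamycin (71.1%, with 49.9% of all genes), with a median of -0.27 (all genes 0.00) and of -0.82 over the 4 pump subunits, values with no test. DMSO replicates 2 and 3 share one with rapamycin replicates 2 and 3, and the median difference within it was 0.03. DMSO replicate 1 and BA+rapamycin replicate 3 share another. There 11 of 45 members were lower in DMSO (24.4%, with 48.4% of all genes). The median of DMSO minus BA+rapamycin was 0.38 (all genes 0.04) and 1.18 over the 4 pump subunits, values with no test. With the date as a random block, 0 members were called for rapamycin in the challenged aorta and 1.69% of all genes. The titles of BA+DMSO replicates 2 and 3 give no date, so each of these arrays stood as its own block.

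**Figure D4:**
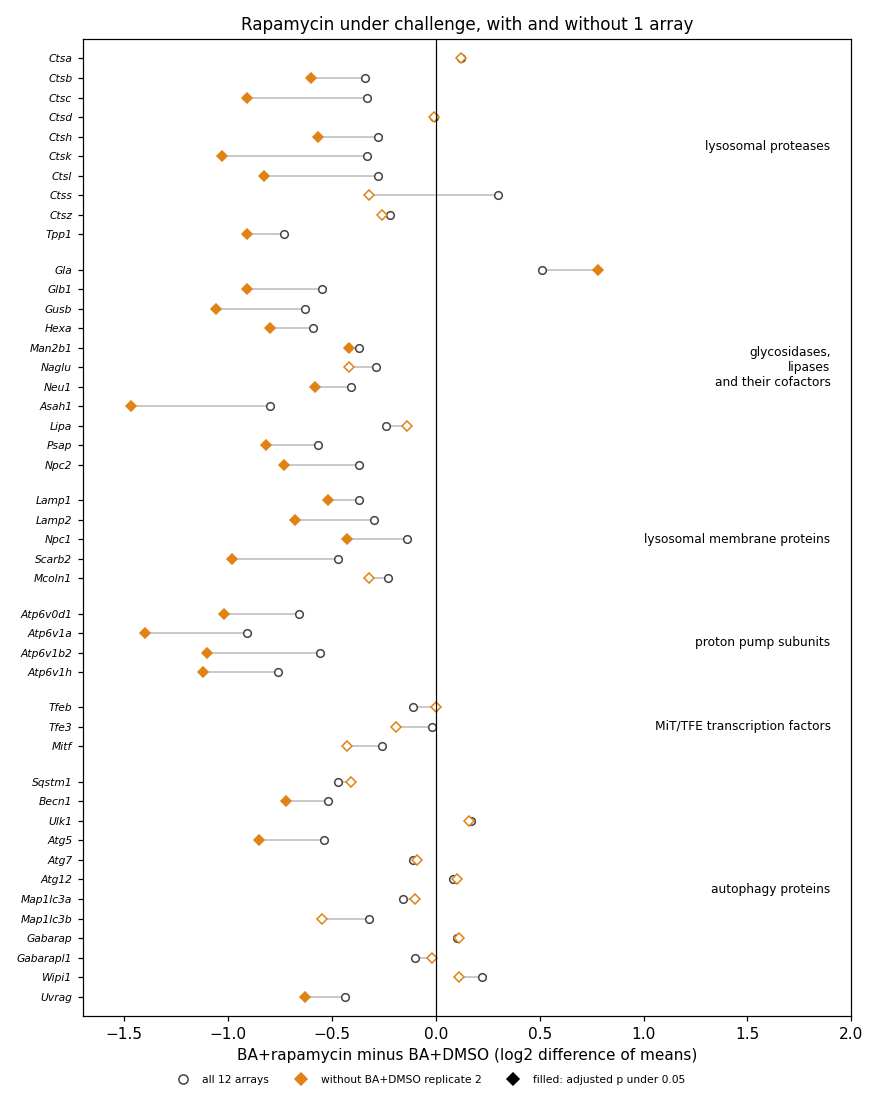
BA+rapamycin minus BA+DMSO in log2 units for the 45 tested members with all 12 arrays (circles) and without BA+DMSO replicate 2 (diamonds), and filled symbols for an adjusted p under 0.05. Most enzyme, membrane and pump genes shift to the left without that array, Atp6v1a from -0.91 to -1.40, and autophagy genes shift both ways, with Atg5 and Becn1 among those to the left.

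BA+DMSO replicate 2 also bore on the challenge on vehicle. It was the lowest BA+DMSO array for 33 of 45 members (73.3%) and for 43.5% of all genes, and it lay nearer the BA+rapamycin mean than the mean of its own group's other arrays for 32 members (71.1%) and for 74.9% of all genes. Without it, the challenge on vehicle called 13 members higher and 4 lower (28.9% and 8.89%), against 14.8% higher and 13.7% lower, or 28.4% in all, of all genes. The 13 were 5 proteases, 5 glycosidases, lipases and cofactors, Scarb2, Gabarap and Wipi1. The 4 that fell were the same 4 as before, Mitf, Map1lc3b, Ulk1 and Gabarapl1. As replicate 2 was the lowest BA+DMSO array for most members, the rises gained by leaving out that array are no support for a change. Its mean log2 level of macrophage markers, 2.52, was the lowest of the 3 BA+DMSO arrays (3.66 and 3.22 in the others), while their summed level, 536, mostly from Itgam (79.7%), was the highest (492 and 281). The mean log2 level of smooth muscle markers, 6.23, was the highest (4.93 and 5.85). The 5 striated muscle markers summed to 19.5 on it, 95.1% of it Myh6, and to 0.808 and 1.25 on the other BA+DMSO arrays, while DMSO arrays reached 19.1 and BA+rapamycin arrays 42.7. The part of these cells in the enzyme levels was not tested. The fit of the challenge on rapamycin uses this array for the spread alone, and gave 26 calls without it (58.3% of all genes were called).

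The interaction, which asks whether rapamycin acted differently with and without the challenge, was called for 0 of 45 members and 0% of all genes. An unadjusted p under 0.05 in limma was found for 2 members (4.44%, with 6.01% of all genes), Hexa and Sqstm1, both -0.74, chosen after their values were seen. A second Sqstm1 probe went the other way (0.62). Without BA+DMSO replicate 2 the interaction was called for 9 members, all negative, with 11.2% of all genes called. These were Atp6v1a (-1.20), Scarb2 (-1.16), Atp6v0d1 (-1.05), Hexa (-0.95), Npc2 (-0.85), Gusb (-0.80), Atg5 (-0.80), Lamp2 (-0.70) and Uvrag (-0.62). That array read low for most members, so these calls are no support for an interaction.

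Related genes outside the 46 were taken as lists of the same roles. Of 27 other lysosomal enzymes tested, 3 rose and 2 fell on vehicle, with Acp5 (tartrate-resistant acid phosphatase, 1.37, adjusted p 0.041) and Galns (0.87, adjusted p 0.00349) as the largest rises and Ctsf (-1.17, adjusted p 0.0106) and Gaa (-0.68, adjusted p 0.017) as the falls. Of 16 other membrane genes, Cd68 (2.63, adjusted p 0.00232) and Laptm5 (1.92, adjusted p 0.0101), both typical of leukocytes, rose and none fell. Of 17 other pump subunits, 2 were called higher and 1 fell. One of the 2, Atp6v0a4, the form of kidney and epididymis, passed the filter only through the challenged groups, where it is high, so its call is no support and only its mean levels are given: -3.43 in DMSO, where 1 of 3 arrays was well above background, and -0.29 in BA+DMSO. Atp6v0a2 rose by 0.56 and Atp6v0e2 fell (-0.93, adjusted p 0.00581). Of 33 other autophagy genes, 9 fell and none rose, led by Calcoco1 (-1.15, adjusted p 0.0179) and the mitophagy receptor Bnip3 (-0.94, adjusted p 0.0173). In the order of these 4 lists, 11.1%, 12.5%, 11.8% (Atp6v0a4 included) and 0% rose, with 10.4% of all genes, and 7.41%, 0%, 5.88% and 27.3% fell, with 11% of all genes.

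On rapamycin the counts for these lists were 4 higher and 6 lower for the other enzymes, 4 and 4 for the membrane genes, 2 (Atp6v0a4 again included) and 7 for the pump and 2 and 17 for autophagy. The shares that fell were 22.2%, 25%, 41.2% and 51.5%, against 22.9% of all genes, and those that rose 14.8%, 25%, 11.8% and 6.06%, against 19.8%. The medians of the 33 other autophagy genes were -0.42 on vehicle and -0.52 on rapamycin (the 12 members had -0.44 and -0.60).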

How the data were processed

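Total RNA of each aorta was labelled with Cy3 and hybridised to a 1-colour Agilent mouse array. Per the labels, images were read with Agilent Feature Extraction 9.5.1.1, while the file headers name 10.7.1.1. The deposited scanner files give intensity per spot: a processed signal that is background-subtracted and detrended on a linear scale but not normalized between arrays, and the spot mean and local background. Flags of 0 or 1 for spots that are well above background, saturated or outliers, probe names and mm9 positions were read from other columns, per the file headers. The authors also deposited a matrix of intensity, whose normalization is not given in the sources used here, and which correlated at 0.99994 with processed signals after quantile normalization.

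Of 62976 spots, 3671 controls and outlier spots were left out and no spot was saturated. Spots of a probe were averaged on the log2 scale, 6 of 55681 probes without a value were dropped, and the 75th percentile of each array was subtracted. The filter kept a probe if, in each array of 1 group or more, the fraction of its spots flagged as well above background exceeded 0.5. Limma 3.58.1 in R 4.3.3 fitted 4 group means over all tested probes. Tests were two-sided, with Benjamini-Hochberg adjustment over all tested probes within a contrast and a call at an adjusted p under 0.05. The script was tested on simulated data. Replicates are separate mice numbered in the order of deposition, and 3 arrays per group limit the precision.

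The 46 members and all lists were chosen with earlier results of these data known. Values on every array are given for called members with the 3 largest rises and falls of each role, the transcription factors and close relatives (without Atp6v0d2, not tested), and some further members are shown for the pattern of 1 array, chosen after their values were seen. Of other lists the 2 largest called rises and falls were named. Where probes lie within gene models was not analysed here. Alternatives were quantile normalization, normexp background, the deposited matrix, filters, slide, title date and brightness as terms, weights, single comparisons, mean probes, the study's call rule and leaving out each array.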

Additional observations from a re-analysis of the deposited data

How the results depend on the processing

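The 8 members called for the challenge on vehicle became 13 with normexp and quantile normalization, 3 without a filter on dim probes, 0 with slide as a fixed block, 16 with slide as a random block (correlation within slide -0.133), 13 with array brightness as a covariate (11 higher, 2 lower), 0 with the arrays of the 2 groups alone and 1 by the study's call rule. The shares of all genes called were 24.3%, 11.6%, 0.0599%, 37.8%, 19.5%, 4.78% and 2.83% in this order, against 21.4%. Leaving out 1 array gave 3 to 17. Where calls were lost, none of these 8 differences changed sign in the 25 alternatives. Ctsz ran from 0.74 to 0.92 and Gabarap from 0.22 to 0.50. The 21 called for the challenge on rapamycin became 12 with slide as a fixed block, 5 with brightness (5 higher, 0 lower), 0 by the study's rule and 3 on slide 2 (29.2%, 6.91%, 5.43% and 12% of all genes), and 9 to 26 with 1 array left out. For rapamycin in the challenged aorta, 0 calls became 0 to 26 with 1 array left out, and for the interaction 0 to 9. Gene-by-gene array weights, chosen like the slide 2 fits after seeing the data, gave 23 calls for the challenge on vehicle, 18 for rapamycin with challenge and 2 for the interaction (46.9%, 25.9% and 3.42% of all genes). The cause of these shifts was not tested.

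On rapamycin, brightness and the challenge cannot be told apart. With brightness as a covariate, the difference on rapamycin changed sign for Atg5 (0.07), Atp6v0d1 (0.12), Atp6v1h (0.13), Becn1 (0.18) and Gla (-0.18), and with the mean of all tested probes for Gabarap (-0.20). Of 746 refits of 29 calls of single genes, 531 kept the call, 209 lost it and these 6 changed sign. Array weights fitted by REML did not converge and were not run. No paired analysis was possible because replicates were numbered in the order of deposition and no comparison has 2 or more pairs of arrays tied by their labels to a shared animal. Some titles share a date across groups, and this date as a random block (correlation 0.497) left 7 calls for the challenge on vehicle and 19 on rapamycin. In that fit 20% and 40.8% of all genes were called. The titles of BA+DMSO replicates 2 and 3 give no date, and each of these arrays was its own block.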
